A study of Mus musculus with 10 samples.

Results

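The genes described here encode the nuclear subunits of the mitochondrial respiratory chain and of the ATP synthase that it drives. They were taken by symbol: every gene whose probe carried a RefSeq accession that maps to a symbol starting with Ndufa, Ndufb, Ndufc, Ndufs, Ndufv, Uqcr, Cox4 to Cox8 or Atp5, or equal to Sdha, Sdhb, Sdhc or Sdhd. The rule found 93 of 20660 symbols with a probe: 36 of complex I, 4 of complex II, 8 of complex III, 20 of complex IV, 17 of complex V and 8 complex I assembly factors (Ndufaf1 to Ndufaf8), which build the complex without being part of it. Cyc1, a complex III subunit with another naming pattern, falls outside the rule, as do the subunits encoded by the mitochondrial genome. Ndufa4 and its relative Ndufa4l2 were counted with complex IV. No measured value entered the rule.

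Complex I takes electrons from NADH and complex II from succinate, complex III passes them on to cytochrome c, and complex IV hands them to oxygen. Complexes I, III and IV pump protons, and complex V uses the gradient to make ATP. Developing red cells keep mitochondria until late, because heme is made there in part, while mature neutrophils rely largely on glycolysis. Several complex IV subunits exist as a common form and a form best known from heart and muscle, lung or testis.

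The RNA came from EML-C1, a multipotent mouse blood progenitor line that was grown in medium with horse serum and conditioned medium. Each of 10 conditions was measured on 1 single-colour array. In the EPO+GM-CSF/IL-3 arm the cells had both sets of factors. The EPO arm had erythropoietin, which drives red cell formation, at 10 ng/ml. The GM-CSF/IL-3 arm had IL-3 at 10 ng/ml with all-trans retinoic acid at 10 µM from the start, and GM-CSF at 10 ng/ml only after day 3. In each arm the day 3 cells were split into a Sca1-low and a Sca1-high fraction, Sca1 being a surface protein of progenitors, and day 6 cells were measured with no fraction named. Untreated cells of day 0 are the common control. All results therefore come from a single line with 1 array per condition, so no spread between replicate cultures can be given. Duplicates that the design text mentions were not analysed here.

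Levels below are log2 processed intensities minus the 75th percentile of the array, so 0 is the 75th percentile. That percentile was 309 intensity units on the EPO Sca1-low array and 478 to 736 on the other 9. The feature extraction software marked 5 of the 6 day 3 arrays for evaluation and none of the day 6 and day 0 arrays. Ly6a, the gene of Sca1 and so the basis of the sort, was at -4.25 to -2.80 on the Sca1-low arrays and at 1.89 to 4.76 on the Sca1-high arrays, as labelled. Of 11 erythroid marker genes, 10 passed the test below as higher in the Sca1-low fraction (median log2 difference 3.33), against 4.09% of all genes. Of 6 progenitor markers 5 were called lower, against 6.98% of all genes. That list includes Ly6a itself, whose direction the sort had set. The summed level of the erythroid markers was 919 to 2166 times the 75th percentile on the Sca1-low arrays, against 355 to 479 on the Sca1-high arrays, and at day 6 it was 327 with EPO+GM-CSF/IL-3, 2117 with EPO and 111 with GM-CSF/IL-3. The 10 neutrophil markers summed to 10.2 to 16.8 in the Sca1-low fractions, against 224 to 508 in the Sca1-high fractions, and to 2132, 13.0 and 2649 in the same order at day 6. The part that this cell mixture had in the values below was not tested, and fewer cells of a type and less RNA per cell cannot be told apart.

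The promoters of 6 members are shown because these genes carry the contrasts described below: Sdhb, Uqcr11 and Cox6a1 were highest on the same array as most members, Ndufa5 was called between the sorted fractions, Cox6b2 was the member farthest above untreated on EPO Sca1-low, and Cox7a1 departed from the common pattern. Each line gives the 250 bases before the start from the RefSeq promoter table of build GRCm38.p6, read 5′ to 3′ on the gene's strand, with matches to 3 short motifs in capitals.
Sdhb, chr4:140961021-140961270, plus strand: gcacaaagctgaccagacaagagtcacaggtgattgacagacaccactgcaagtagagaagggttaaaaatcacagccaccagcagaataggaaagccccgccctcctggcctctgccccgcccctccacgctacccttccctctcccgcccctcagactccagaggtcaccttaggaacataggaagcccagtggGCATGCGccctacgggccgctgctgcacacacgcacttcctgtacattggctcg
Uqcr11, chr10:80406822-80407071, minus strand: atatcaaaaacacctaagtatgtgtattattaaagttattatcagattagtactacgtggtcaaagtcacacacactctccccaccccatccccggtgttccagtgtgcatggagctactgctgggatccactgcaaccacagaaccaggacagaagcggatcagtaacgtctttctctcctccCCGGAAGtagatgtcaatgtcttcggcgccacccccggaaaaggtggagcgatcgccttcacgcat
Cox6a1, chr5:115348959-115349208, minus strand: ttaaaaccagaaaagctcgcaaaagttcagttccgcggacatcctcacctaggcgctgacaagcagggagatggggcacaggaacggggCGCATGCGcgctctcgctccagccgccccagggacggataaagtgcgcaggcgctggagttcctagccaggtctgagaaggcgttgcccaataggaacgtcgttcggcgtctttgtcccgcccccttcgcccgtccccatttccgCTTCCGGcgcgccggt
Ndufa5, chr6:24527691-24527940, minus strand: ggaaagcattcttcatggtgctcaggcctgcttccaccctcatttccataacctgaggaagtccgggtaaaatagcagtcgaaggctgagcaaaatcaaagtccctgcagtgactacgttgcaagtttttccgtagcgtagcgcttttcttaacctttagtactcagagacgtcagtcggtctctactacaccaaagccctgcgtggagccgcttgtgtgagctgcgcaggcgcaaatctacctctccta
Cox6b2, chr7:4753095-4753344, minus strand: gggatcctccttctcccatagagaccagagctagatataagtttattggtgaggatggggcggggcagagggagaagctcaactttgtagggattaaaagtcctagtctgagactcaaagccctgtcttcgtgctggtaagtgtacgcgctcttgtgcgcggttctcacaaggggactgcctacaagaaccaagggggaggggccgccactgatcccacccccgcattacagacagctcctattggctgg
Cox7a1, chr7:30183921-30184170, plus strand: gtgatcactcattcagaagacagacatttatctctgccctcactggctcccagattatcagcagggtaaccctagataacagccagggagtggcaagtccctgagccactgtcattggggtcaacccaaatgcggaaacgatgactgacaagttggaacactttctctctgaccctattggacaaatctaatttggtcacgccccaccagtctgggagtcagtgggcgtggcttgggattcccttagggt
The motifs were GCATGCG, within the site of the factor NRF1, CCGGAAG, the core bound by ETS factors such as GABPA, and AAGATGG, within the YY1 site, each searched on both strands. NRF1 and GABPA are known regulators of nuclear respiratory genes. Over windows of 300 bases (250 before to 50 after the start), 76 of the 93 members had an entry. The NRF1 letters stood in 13 of 76 (17.1%), against 4.01% of 27025 genes. The ETS letters stood in 19 of 76 (25.0%), against 9.93% of all genes, and the YY1 letters in 12 of 76 (15.8%), against 7.28%. The capitals mark an NRF1 match in Sdhb, an ETS match in Uqcr11 and both in Cox6a1. The windows printed for Ndufa5, Cox6b2 and Cox7a1 hold none of the 3 strings. Over the 300 bases, Sdhb also held the ETS letters and Uqcr11 the NRF1 letters, not wholly within the printed bases. Nothing about binding follows from these letters. The 6 promoters are no sample of the members, and whether the letters go with the pattern of levels was not tested. Cox6b2, Atp5b and Atp5g1 were also highest on EPO Sca1-low, and their windows hold none of the 3 strings.

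Of the 93 members, 89 were well above background on at least 2 arrays and were tested with 14217 genes in all. All 89 were well above background on all 10 arrays, and none was saturated. The other 4 were Cox7b2, well above background on 1 array, and Cox8b, Cox8c and Ndufa4l2, well above background on no array. Cox8b is best known from heart and muscle and Cox8c from testis. The 89 varied over a median range of 1.57 log2 units across the 10 arrays, against 1.56 for all genes tested. The narrowest range in each complex was that of Ndufa6 in complex I (0.70), Sdha in complex II (0.90), Uqcrc2 in complex III (1.27), Cox5a in complex IV (0.75) and Atp5j in complex V (0.94). The widest was that of Ndufa13 (2.46), Sdhb (2.09), Uqcrc1 (2.78), Cox6a2 (3.95) and Atp5o (2.37) in the same order.

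**Figure D1:**
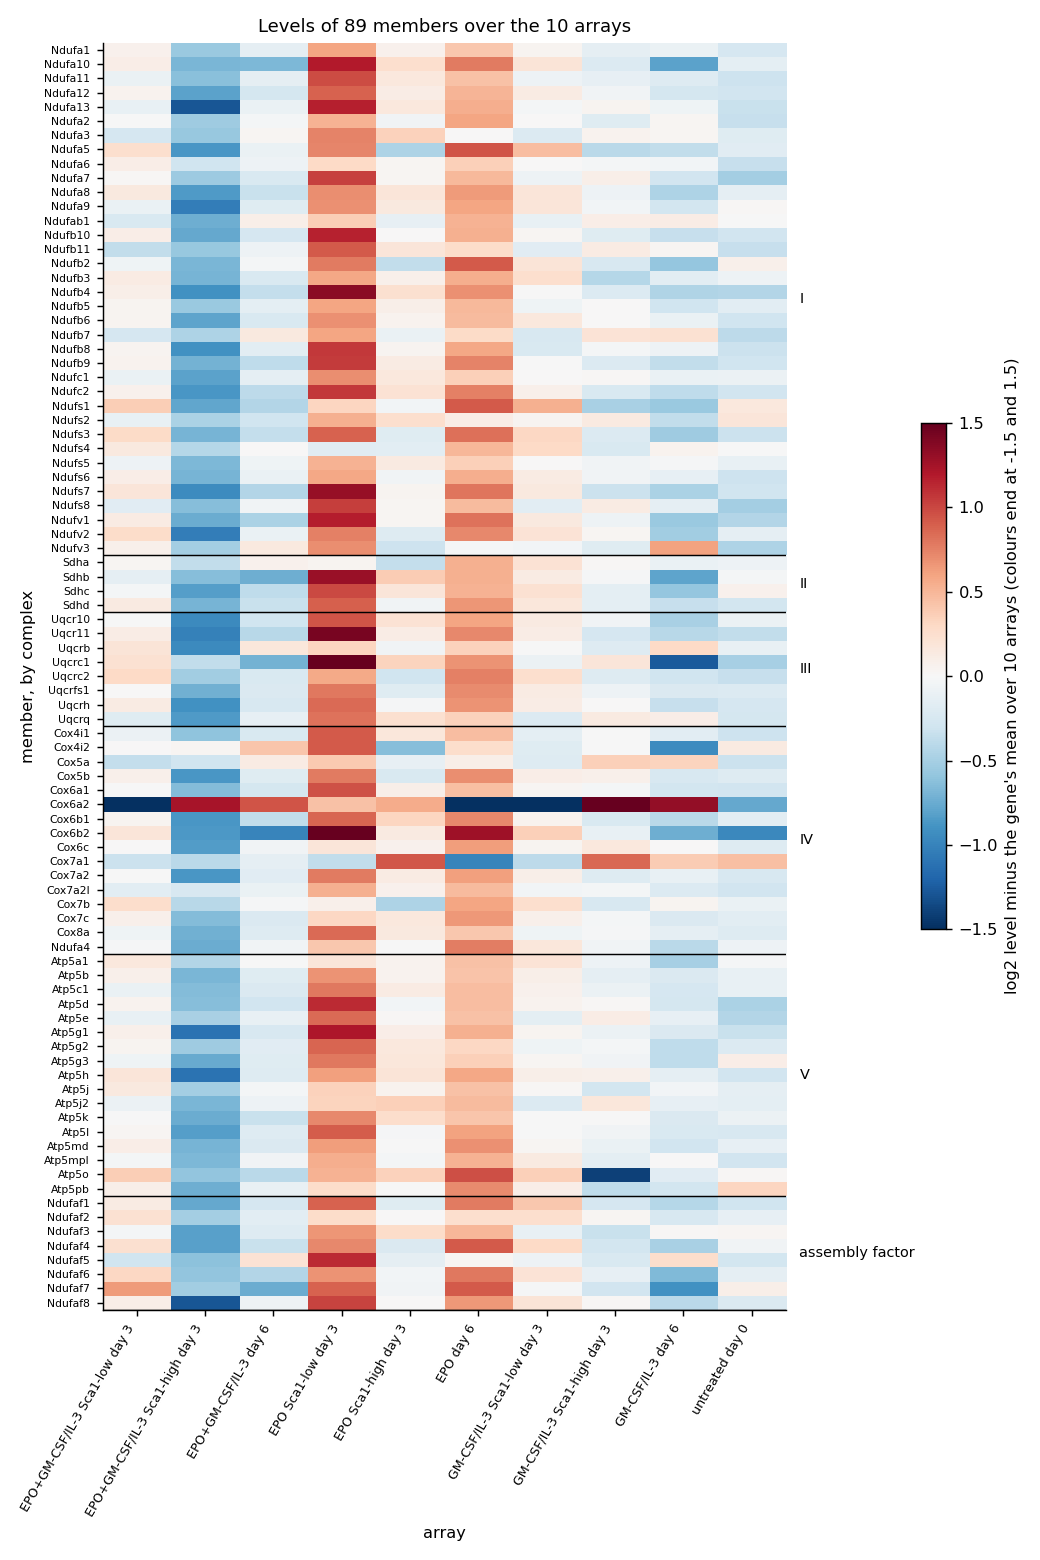
Level of each of the 89 tested members (rows, grouped by complex) on the 10 arrays (columns), as log2 level minus the mean of that gene over the arrays. Red in the EPO Sca1-low and EPO day 6 columns and blue in the EPO+GM-CSF/IL-3 Sca1-high column run through nearly all rows, and Cox6a2 and Cox7a1 are among the rows that break the pattern.

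Most members had the same highest and lowest array. EPO Sca1-low was the highest of 10 arrays for 64 of 89 members (71.9%), against 25.8% of all genes tested. EPO+GM-CSF/IL-3 Sca1-high was the lowest for 74 of 89 (83.1%), against 22.8% of all genes. With quantile normalization, which gives every array the same distribution of intensities, these counts were 40 and 52 of 89, against 21.4% and 16.2% of all genes. EPO Sca1-low was also the array with the lowest 75th percentile.

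Relative to the untreated array, the member medians were highest on the EPO Sca1-low and EPO day 6 arrays. The median member stood 0.92 above untreated on the EPO Sca1-low array, 0.26 above on EPO Sca1-high and 0.78 above on EPO day 6. In the GM-CSF/IL-3 arm the medians were 0.29 in Sca1-low, 0.12 in Sca1-high and -0.02 at day 6. With EPO+GM-CSF/IL-3 they were 0.25 in Sca1-low, -0.53 in Sca1-high and 0.02 at day 6. On EPO Sca1-low, 38 of 89 members were at least 2-fold higher than untreated and 0 at least 2-fold lower, against 21% and 18.2% of all genes. On EPO day 6 the counts were 12 and 1, against 15.2% and 15% of all genes. On EPO+GM-CSF/IL-3 Sca1-high they were 1 (Cox6a2) and 3 (Ndufaf8, Ndufa9 and Atp5pb), against 9.29% and 6.94%. All of these counts are with scaling to the array percentile. With quantile normalization the only tested members at least 2-fold higher on EPO Sca1-low were Atp5d, Cox6a2, Cox6b2, Ndufaf5, Ndufaf8, Ndufb4, Ndufs8, Uqcr11 and Uqcrc1. The excess over all genes is therefore stated for percentile scaling only and is not claimed for quantile normalization. The median member level on EPO Sca1-low was 15.54 with quantile normalization, against 15.32 untreated. Percentile scaling gave 6.79, against 5.93. Percentile scaling gave median differences in EPO Sca1-low of 0.96 for complex I, 1.05 for complex II and 1.06 for complex III. They were 0.90 for complex IV, 0.81 for complex V and 0.80 for the assembly factors. In EPO+GM-CSF/IL-3 Sca1-high the medians of those groups lay between -0.61 for complex III and -0.43 for complex IV. With quantile normalization the median level of each complex in EPO Sca1-low is given, which is another measure than the median of the differences above. The median level of complex V was then 15.99, against 16.15 untreated, and that of complex IV 15.46, against 15.50. Single members of both went either way, such as Atp5d (15.08, against 14.03) and Atp5a1 (15.94, against 16.51). Cox4i1 had 16.88, against 16.52, and Cox6c 16.31, against 16.72, so no fall of these complexes is read from the median levels. Complex I had 15.52 against 15.21, complex II 15.55 against 15.14 and complex III 15.80 against 15.42. The assembly factors had 12.26, against 11.75 untreated. On EPO Sca1-low the members farthest above untreated were Cox6b2 (2.68), Uqcrc1 (2.02) and Uqcr11 (1.79), and those lowest were Cox7a1 (-0.81), Ndufs4 (-0.17) and Atp5pb (-0.04). On EPO day 6 the highest were Cox6b2 (2.24), Ndufv1 (1.26) and Uqcrc1 (1.18), and the lowest Cox7a1 (-1.43) and Cox6a2 (-0.83). Cox6a2 was the member farthest above untreated on all 3 Sca1-high arrays, at 2.00 with EPO+GM-CSF/IL-3, 1.33 with EPO and 2.46 with GM-CSF/IL-3. It was also the highest at day 6 with EPO+GM-CSF/IL-3 (1.71) and with GM-CSF/IL-3 (2.09). On EPO+GM-CSF/IL-3 Sca1-high the lowest were Ndufaf8 (-1.07), Ndufa9 (-1.06) and Atp5pb (-1.05). All 9 differences share the single untreated array. EPO day 6 and EPO+GM-CSF/IL-3 day 6 were hybridised on the same slide as the untreated array, and the other 7 treated arrays were not.

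**Figure D2:**
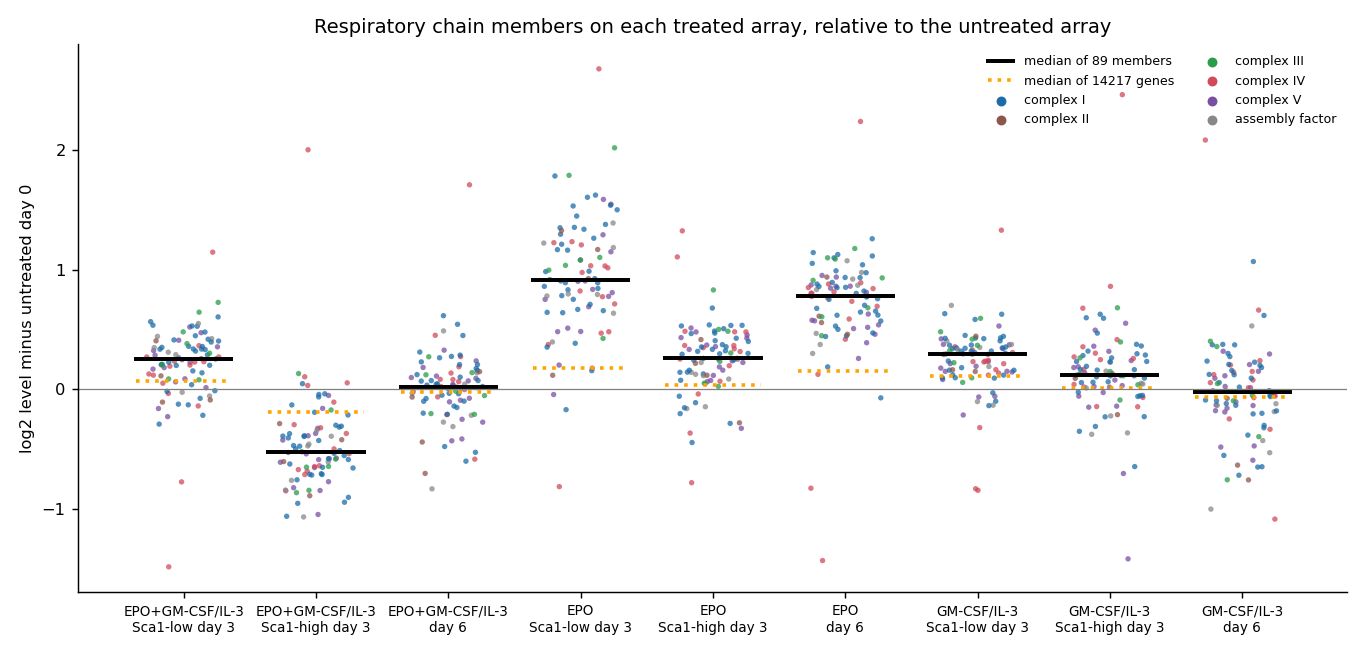
Log2 level of each tested member on each treated array minus its level on the untreated array (points, coloured by complex), with the median of the 89 members (black line) and of all 14217 genes (dotted line). The EPO Sca1-low and EPO day 6 medians of 0.92 and 0.78 stand above the others, and EPO+GM-CSF/IL-3 Sca1-high at -0.53 stands below.

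The shift was not of one size under every scaling. All genes tested had medians of 0.18 on EPO Sca1-low, 0.16 on EPO day 6 and -0.19 on EPO+GM-CSF/IL-3 Sca1-high. The members are bright, and 850 other genes with mean levels between 4.96 and 6.77, the quartiles of the members, had medians of 0.51, 0.45 and -0.35 on those arrays. With quantile normalization the member medians were 0.31, 0.29 and -0.37, and the medians of GM-CSF/IL-3 Sca1-high (-0.03) and EPO+GM-CSF/IL-3 day 6 (-0.11) turned from above to below untreated.

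**Figure D3:**
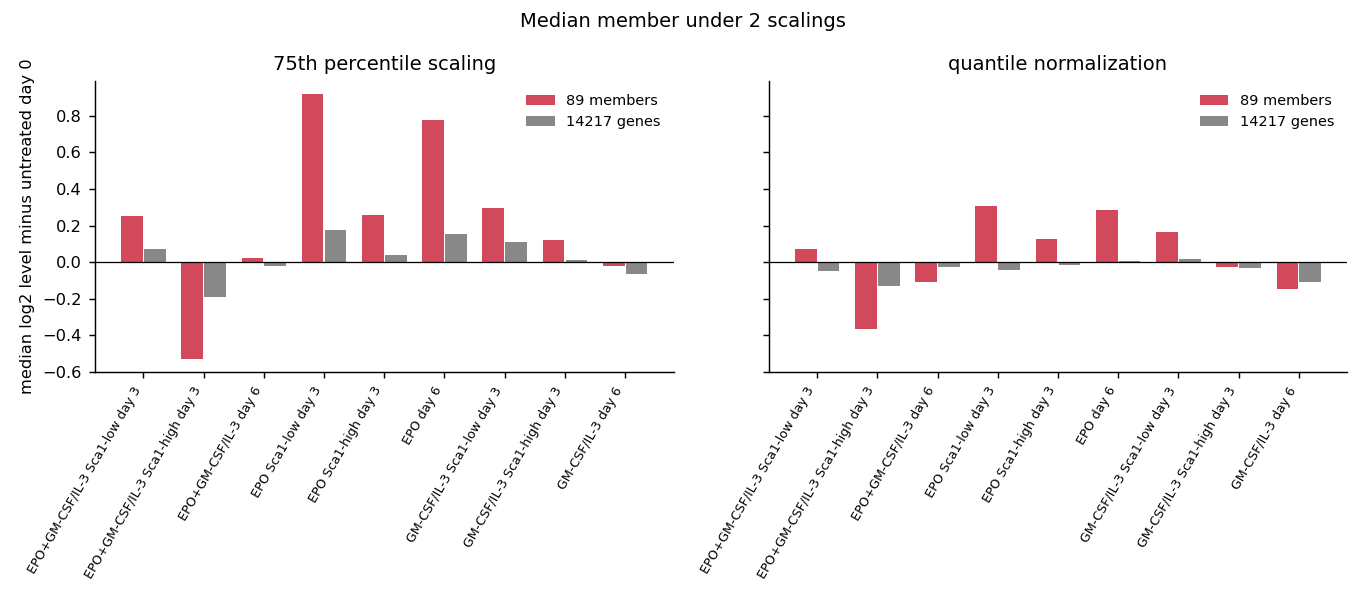
Median log2 level minus untreated for the 89 members and for all 14217 genes on each treated array, with 75th percentile scaling (left) and quantile normalization (right). The EPO Sca1-low median of the members is 0.92 on the left and 0.31 on the right, and the signs of GM-CSF/IL-3 Sca1-high and EPO+GM-CSF/IL-3 day 6 differ between the panels.

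Between the sorted fractions at day 3, most members stood higher in Sca1-low than in Sca1-high cells, and 1 passed the test. The test was limma on the 6 day 3 arrays with treatment as a block, so its error is the disagreement between the 3 treatments and not a spread between cultures. Ndufa5, an accessory subunit of complex I, rose (log2 difference 1.06, SE 0.20, adjusted p = 0.0434 over all genes). Its levels were 6.37, 6.86 and 6.59 in the Sca1-low fractions of EPO+GM-CSF/IL-3, EPO and GM-CSF/IL-3, against 5.25, 5.67 and 5.73 in the Sca1-high fractions. The groups did not overlap, and a second probe of the gene gave a difference of 0.95. The call was 1 of 89, against 4.09% of all genes called higher and 6.98% called lower, so members were not called more often than genes at large. At an unadjusted p under 0.05 in limma, 26 members (29.2%) were higher and 1 (1.12%) was lower, against 16.9% and 14% of all genes; with quantile normalization 12.4% of members were higher, against 13.7%. The Ndufa5 call was lost with quantile normalization (adjusted p = 0.0658, limma) and when any 1 of the 3 pairs of arrays was left out (0.0589 to 0.283). When only the 10621 genes well above background on all arrays were tested, 10 members (11.2%) were called higher and 1 (1.12%) lower, against 12.7% and 10.1% of those genes.

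The median member difference was 0.53, against 0.17 for all genes and 0.32 for the 850 other genes of like brightness. With quantile normalization the same medians were 0.29, 0.05 and 0.05. By complex the medians were 0.57 for complex I, 0.59 for complex II, 0.63 for complex III, 0.44 for complex IV, 0.50 for complex V and 0.72 for the assembly factors. Sca1-low exceeded Sca1-high in all 3 treatments for 64 of 89 members (71.9%), against 34% of all genes, and with quantile normalization for 51, against 28.5%. All 3 Sca1-low arrays exceeded all 3 Sca1-high arrays for 33 of 89, against 21.4% of all genes. Within treatments the median difference was 0.74 with EPO+GM-CSF/IL-3, 0.69 with EPO and 0.17 with GM-CSF/IL-3, and with quantile normalization 0.42, 0.18 and 0.20. Each pair of fractions was hybridised on 1 slide, so these values are also within-slide values.

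After Ndufa5, the members with the largest differences of a single sign did not pass the adjusted threshold. Cox6b2, a complex IV subunit best known from testis, had a difference of 1.03 (adjusted p = 0.0907). Atp5o, the stalk subunit of complex V, had 0.97 (0.152), and Ndufs7, an iron-sulfur subunit of complex I, had 0.96 (0.0839), all from limma. Ndufs7 levels were 6.55, 7.68 and 6.52 in the Sca1-low fractions in the order used above, against 5.42, 6.41 and 6.05 in the Sca1-high fractions. For Atp5o they were 5.76, 5.91 and 5.74, against 4.79, 5.73 and 3.98. The low Atp5o level of 3.98 was that of a single array, GM-CSF/IL-3 Sca1-high. Uqcr11, a small complex III subunit, had levels of 6.82, 8.13 and 6.82, against 5.69, 6.83 and 6.45. The assembly factors Ndufaf1 and Ndufaf4 had differences of 0.87 (0.0698) and 0.86 (0.077).

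**Figure D4:**
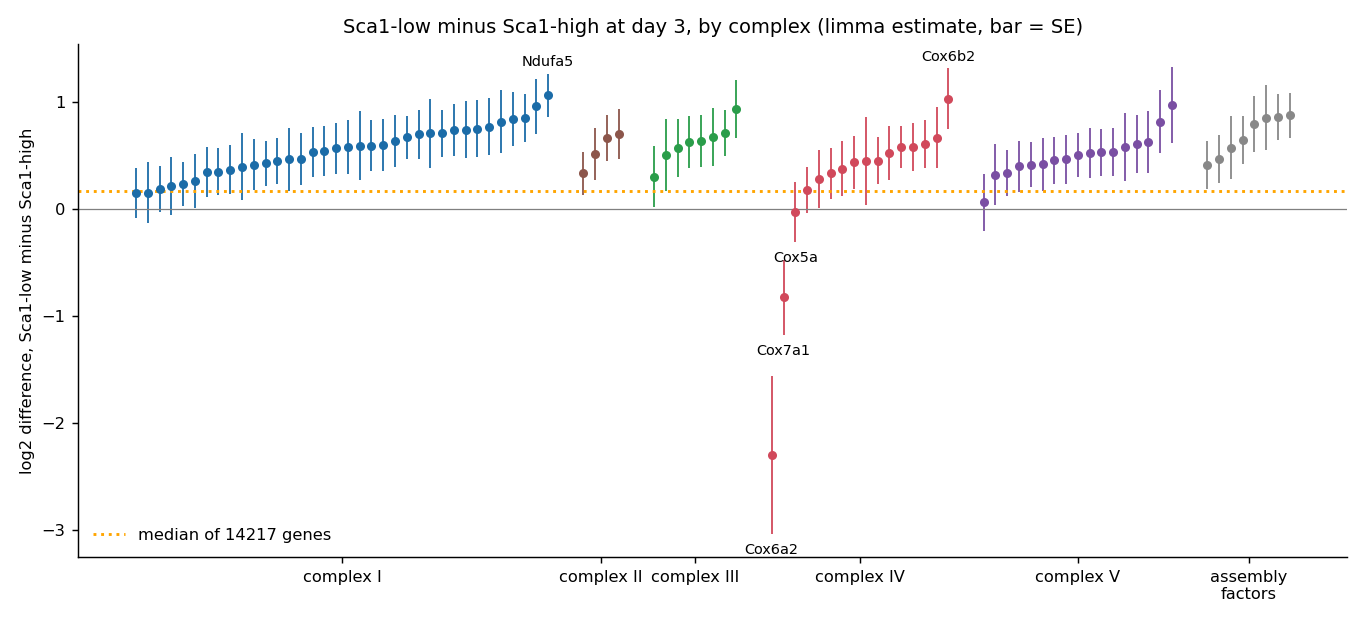
Log2 difference, Sca1-low minus Sca1-high at day 3, for each of the 89 members sorted within complex (points, limma estimate on 6 arrays; bars, SE), with the median of all 14217 genes as a dotted line. With this 75th percentile scaling, estimates for 86 of 89 members are above 0, Ndufa5 at 1.06 is the only one that passed the adjusted threshold, and Cox6a2 at -2.30 and Cox7a1 at -0.83 lie below.

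With 75th percentile scaling 3 of 89 members had estimates below 0, all of complex IV. With quantile normalization 10 did, 4 of complex I (Ndufa3, Ndufb7, Ndufb11 and Ndufa6), 1 of complex III (Uqcrq), 4 of complex IV (Cox7a2l beside the 3) and 1 of complex V (Atp5j2). Cox6a2, the heart and muscle form of subunit VIa, had a difference of -2.30 (SE 0.74, adjusted p = 0.119, limma). Its levels were -1.64, 1.05 and -0.99 in the Sca1-low fractions of EPO+GM-CSF/IL-3, EPO and GM-CSF/IL-3, against 1.85, 1.17 and 2.31 in the Sca1-high fractions. The difference was thus -3.49 with EPO+GM-CSF/IL-3, -0.12 with EPO and -3.30 with GM-CSF/IL-3. At day 6 the gene was at 1.56 with EPO+GM-CSF/IL-3, -0.98 with EPO and 1.93 with GM-CSF/IL-3, and untreated cells had -0.15. It was at 1.17 or above on the 5 treated arrays where the neutrophil markers summed to 224 or more. Of the 4 treated arrays with sums of 10.2 to 16.8 it was below 0 on 3, and EPO Sca1-low, with a sum of 16.2, was the exception at 1.05. Untreated cells, with Cox6a2 at -0.15, had a neutrophil sum of 311, so Cox6a2 and the sum did not go together there. The sum rests on the brightest markers. The median level of the 10 markers was -2.40 on EPO Sca1-high and -3.32 untreated, near the -2.54 of EPO Sca1-low. It was 0.19 on GM-CSF/IL-3 Sca1-low, and 2.70 to 7.52 on the other treated arrays with high sums. The pairing with Cox6a2 thus depends on the measure. The part of neutrophil-like cells in these values was not tested. Cox6a1, the common counterpart of Cox6a2, had 8.73, 9.69 and 8.77 in the Sca1-low fractions, against 8.09, 8.83 and 8.71 in the Sca1-high fractions. That gene was therefore higher in Sca1-low in every arm, with 8.48, 9.19 and 8.47 at day 6 and 8.46 untreated.

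Cox7a1, the heart and muscle form of subunit VIIa, had a difference of -0.83 (adjusted p = 0.194, limma). Its levels were 0.75, 0.71 and 0.68 in the Sca1-low fractions, against 0.67, 2.00 and 1.94 in the Sca1-high fractions. The arms did not behave alike: it was lower in Sca1-low with EPO and with GM-CSF/IL-3, and with EPO+GM-CSF/IL-3 the fractions differed by 0.07. At day 6 it was at 0.94, 0.09 and 1.45 in the same order of arms, and at 1.52 untreated. The common form Cox7a2 had 6.24, 7.03 and 6.34 in the Sca1-low fractions, against 5.37, 6.38 and 6.05 in the Sca1-high fractions. The third member below 0 was Cox5a, with -0.03, and -0.35 with quantile normalization.

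**Figure D5:**
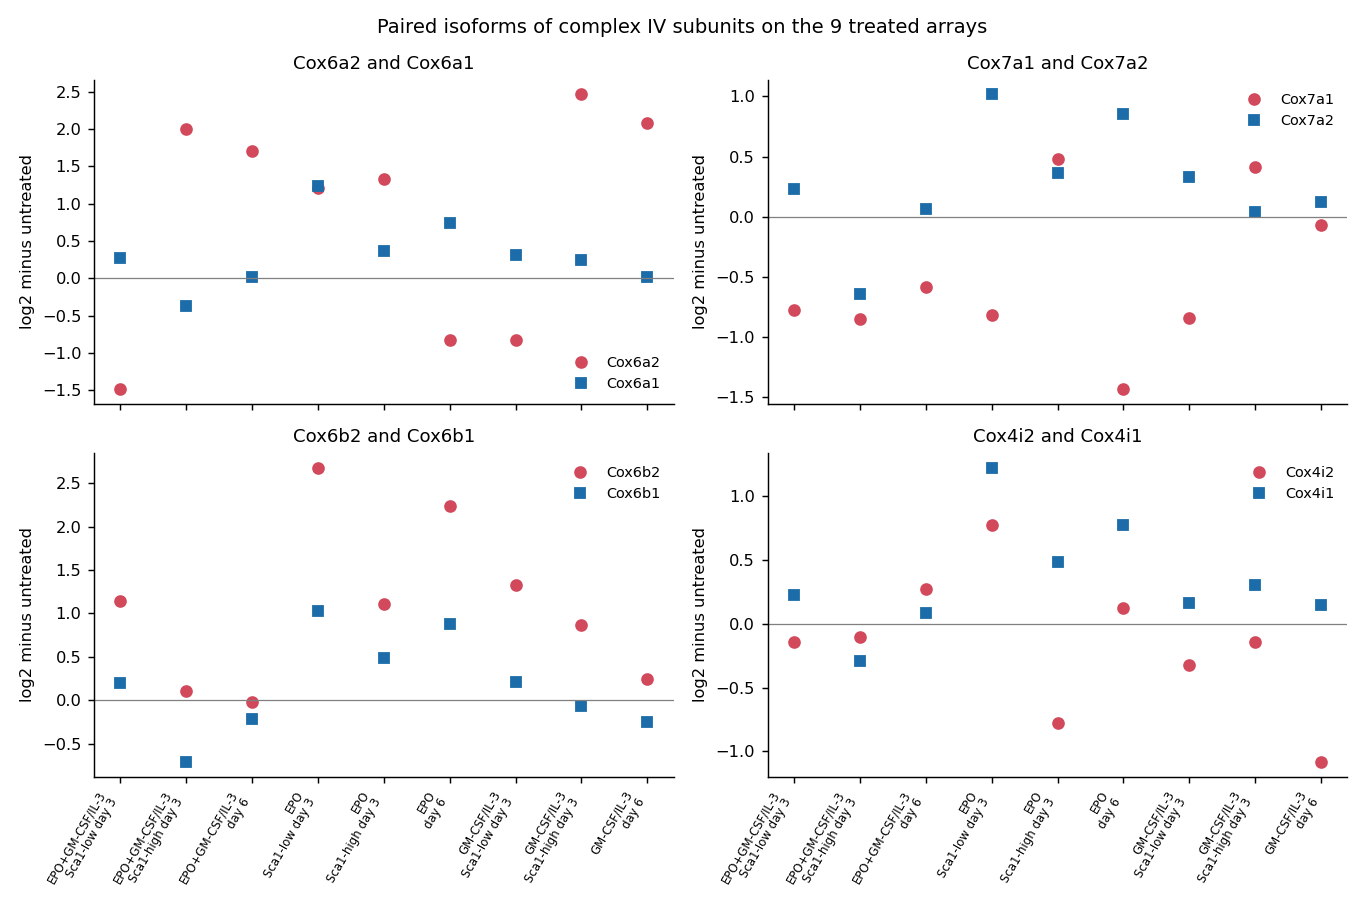
Log2 level minus untreated on the 9 treated arrays for 4 pairs of complex IV subunit forms, with the tissue-restricted form as circles and the common form as squares. Cox6a2 and Cox7a1 follow other arrays than Cox6a1 and Cox7a2, while Cox6b2 has its 2 highest values, 2.68 and 2.24, on the EPO Sca1-low and EPO day 6 arrays where Cox6b1 is also highest.

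Both forms of Cox6b and Cox4i and all 3 Atp5g genes were highest in EPO Sca1-low cells, as most members were. Taking the Sca1-low fraction, the Sca1-high fraction and day 6 in turn, Cox6b2 had levels of -0.37, -1.41 and -1.53 with EPO+GM-CSF/IL-3, 1.17, -0.41 and 0.73 with EPO, and -0.18, -0.65 and -1.27 with GM-CSF/IL-3, against -1.52 untreated. It was the only member at least 2-fold above untreated on all 3 arrays of an arm, the EPO arm. Cox6b1 had 4.17, 3.26 and 3.76, then 5.00, 4.45 and 4.85, then 4.19, 3.90 and 3.73 in the same order, against 3.97 untreated. Cox4i2, the form of subunit IV best known from lung, ranged from -1.34 in GM-CSF/IL-3 day 6 cells to 0.52 in EPO Sca1-low cells, and Cox4i1 from 6.76 in EPO+GM-CSF/IL-3 Sca1-high cells to 8.29 in EPO Sca1-low cells. The 3 genes for the c subunit of complex V, Atp5g1, Atp5g2 and Atp5g3, each had their highest level in EPO Sca1-low cells (8.58, 9.33 and 8.30) and their lowest in EPO+GM-CSF/IL-3 Sca1-high cells (6.26, 7.92 and 6.76). With quantile normalization Atp5g3 was highest in untreated cells (17.14, against 16.88 in EPO Sca1-low). Atp5g2 was then highest in EPO Sca1-high cells (17.85, against 17.76 in EPO Sca1-low). Cox7a2l, Cox7b, Cox8a and Ndufa4 had differences of 0.18, 0.58, 0.43 and 0.45 between the fractions, with no call.

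Between the arms, the members stood lower with EPO+GM-CSF/IL-3 than with EPO alone, and none passed the test. Limma was fitted on the 9 treated arrays with arm and population (Sca1-low, Sca1-high or day 6). The median difference was -0.76, against -0.14 for all genes and -0.41 for the 850 genes of like brightness. With quantile normalization these were -0.38, -0.03 and -0.05. EPO+GM-CSF/IL-3 was below EPO in all 3 populations for 79 of 89 members (88.8%), against 31.5% of all genes, and with quantile normalization for 58, against 24.8%. The population medians were -0.76 in Sca1-low, -0.75 in Sca1-high and -0.73 at day 6. With quantile normalization they were -0.26, -0.45 and -0.36. The day 6 arrays shared a slide, while both day 3 pairs were on different slides. A fit with the slide as a block therefore takes this difference from the day 6 pair alone and is no check on the day 3 pairs. Of all genes, 0% were called lower and 0.00703% higher. No member was called, and the smallest adjusted p in limma was 0.147. Without adjustment 61 members (68.5%) were lower at a p under 0.05, against 15.3% of all genes, and with quantile normalization 27% were, against 11.1%. With the slide as a block no member was called either, while 2% of all genes were called lower and 4.09% higher, and 18% of members were lower without adjustment, against 11.5%.

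The largest differences were those of Cox6b2 (-1.60, SE 0.35), Sdhb (-1.24, SE 0.24), Uqcr11 (-1.19, SE 0.25) and Ndufa10 (-1.16, SE 0.26). Sdhb encodes the iron-sulfur subunit of complex II. For the Sca1-low fraction, the Sca1-high fraction and day 6, it had 6.46, 5.96 and 5.86 with EPO+GM-CSF/IL-3, 7.89, 6.98 and 7.12 with EPO, and 6.71, 6.58 and 5.81 with GM-CSF/IL-3, against 6.56 untreated. The EPO values lay above those of the combination in each population. Ndufa10, a complex I accessory subunit, had 4.32, 3.53 and 3.54 with the combination, 5.41, 4.48 and 5.00 with EPO, and 4.41, 4.02 and 3.42 with GM-CSF/IL-3. Its untreated level was 4.07.

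EPO exceeded GM-CSF/IL-3 by a median of 0.55, against 0.10 for all genes and 0.27 for the 850 genes of like brightness. With quantile normalization these were 0.23, 0.01 and 0.01. EPO was above GM-CSF/IL-3 in all 3 populations for 60 of 89 members (67.4%), against 23.4% of all genes, and with quantile normalization for 44, against 20.1%. No member was called, with a smallest adjusted p of 0.206 in limma, while 29 (32.6%) were higher at an unadjusted p under 0.05, against 10.4% of all genes. With quantile normalization 15.7% were, against 8.5%, and with the slide as a block 3.37%, against 4.83%. The background was 0% called higher and 0.00703% called lower. Its median was 0.69 in Sca1-low, 0.12 in Sca1-high and 0.73 at day 6. With quantile normalization it was 0.16, 0.14 and 0.37, so the gap between the sorted fractions was hardly there. Both arms were on 1 slide at day 3 and on different slides at day 6. Uqcrc1, a core subunit of complex III, had the largest estimate at 1.23 (SE 0.36). In the same order of populations it had 5.77, 4.58 and 4.93 with EPO, and 4.17, 4.43 and 2.99 with GM-CSF/IL-3, against 3.75 untreated.

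EPO+GM-CSF/IL-3 and GM-CSF/IL-3 differed by a median of -0.21, against -0.07 for all genes and -0.14 for the 850 genes of like brightness. With quantile normalization these were -0.13, -0.03 and -0.04. No member was called and none had an unadjusted p under 0.05, and 0% of all genes were called in either direction. The median was -0.02 in Sca1-low, -0.62 in Sca1-high and 0.02 at day 6, and with quantile normalization -0.09, -0.31 and 0.01. These arms were on different slides in every population, so each of these medians is also a difference between slides. With the slide as a block the member median was -0.31, against -0.10 for all genes. The comparisons between arms share arrays, so their values are not independent of each other.

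Day 6 cells had a median difference of -0.23 from the Sca1-low fraction of day 3, against -0.07 for all genes and -0.08 for the 850 genes of like brightness. From the Sca1-high fraction it was 0.29, against 0.07 and 0.20. With quantile normalization the member medians were -0.16 and 0.10. No member was called in either comparison, and 0% of all genes were called. At an unadjusted p under 0.05 in limma, 4.49% of members were lower than in Sca1-low, against 8.65% of all genes, and 3.37% were higher than in Sca1-high, against 5.14%. With the slide as a block the member medians were -0.51 and 0.08, with -0.20 and -0.04 for all genes. No member was called then, while 6.1% of all genes were called higher and 3.31% lower than in Sca1-low, and 0.591% and 0.274% than in Sca1-high. From Sca1-low, the day 6 median was -0.22 with EPO+GM-CSF/IL-3, -0.23 with EPO and -0.31 with GM-CSF/IL-3. From Sca1-high, it was 0.50, 0.45 and -0.18 in the same order, so the GM-CSF/IL-3 arm had the opposite sign. By limma the largest differences from Sca1-high were those of Ndufa5 (0.74), Atp5o (0.68), Uqcrb (0.67) and Cox7b (0.58). The largest from Sca1-low were those of Uqcrc1 (-0.98), Cox6b2 (-0.90), Sdhb (-0.76) and Ndufa10 (-0.73).

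Genes that work with the respiratory chain were read alongside. The assembly list held 51 genes with a probe, 8 of them members, and 50 were tested. Between the fractions its median was 0.52 with 48 of 50 above 0, and 1 was called, against 4.09% of all genes called higher. The called gene was Cox11, which delivers copper to complex IV (1.05, SE 0.21, adjusted p = 0.0464, limma). Cox11 levels were 2.64, 3.18 and 2.84 in the Sca1-low fractions of EPO+GM-CSF/IL-3, EPO and GM-CSF/IL-3, against 1.36, 2.28 and 1.88 in the Sca1-high fractions. Electron carriers and feeders had a median of 0.44 with 6 of 8 above 0, and tricarboxylic acid cycle genes a median of 0.46 with 17 of 19 above 0. Coenzyme Q synthesis genes had 0.57 with 11 of 13 above 0, and carriers of the inner membrane 0.42 with 7 of 8 above 0. Transcription factors and coactivators of mitochondrial genes had 0.52 with 14 of 16 above 0. No gene of these 5 lists was called. Of the 850 other genes in the brightness range of the members, 73.8% were above 0, with a median of 0.32. With quantile normalization that median was 0.05. The lists were read with percentile scaling only and were not matched for brightness, so their counts above 0 are no excess over other genes. Nrf1 and Gabpa themselves had differences of 0.05 and 0.17 (adjusted p = 0.878 and 0.695, limma), and Ppargc1a was well above background on 1 array. The 6 proliferation genes had a median of 0.29 with none called.

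Where a gene had several probes, they mostly gave the same picture. There were 23 members with 30 further probes, and the median correlation of a further probe with the one used was 0.944 over the 10 arrays, as a description. A second probe of Ndufv3, a complex I subunit, had a correlation of -0.09 and a fraction difference of -0.41, against 0.58 for the probe used. A second probe of Ndufb11 gave -0.07, against 0.21. The direction for both genes is therefore uncertain.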

How the data were processed

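RNA of 10 samples was read on single-colour Agilent arrays, extracted with Agilent Feature Extraction 11.0.1.1 per the submitters' processing notes. The deposited intensity values are the software's processed signal, background-subtracted per the file headers. The series' own value table held the same numbers. Of 62976 spots, 59305 were no controls and gave 55681 probes, and 27235 probes were named through RefSeq accessions (98.1% of those with one). Outlier spots were left out and repeat spots averaged. Each array's 75th percentile was subtracted on the log2 scale, and the brightest probe stood for a gene.

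A gene was tested if well above background on at least 2 arrays. Differences were tested with limma 3.58.1 in R 4.3.3, with Benjamini-Hochberg adjustment over 14217 genes and a threshold of 0.05. The 6-array fit left 2 residual degrees of freedom and the 9-array fit 4. Differences from untreated cells and within an arm have no test. With 1 array per condition, each p-value weighs an average difference by how far the arms or populations disagreed on it, and the precision is limited by the number of arrays.

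Normalization, background correction, filter, probe choice, slide and left-out arrays were varied. The planned normexp correction used the median signal with an offset of 50. Genes for the text were chosen by rank of difference among members of 1 sign in all blocks, by range within a complex, by rank and 2-fold distance from untreated, and as paired forms. The members and lists were chosen with earlier results of these data known. The comparison with genes of like brightness was added after seeing the data. Scripts were tested on simulated data.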

Additional observations from a re-analysis of the deposited data

Results flagged for a closer look

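Each condition has 1 array, so no array could be set against others of its group. Values that pointed in opposite directions in different arms are listed here; these differences between arms were not tested. From Sca1-high day 3 to day 6, the median member differed by -0.18 in the GM-CSF/IL-3 arm, where the other arms were above 0. Single members are given where 1 arm was at least 1.5-fold lower and another at least 1.5-fold higher. From Sca1-low day 3 to day 6, Cox6a2 differed by 3.20 with EPO+GM-CSF/IL-3 and -2.03 with EPO. Over the same interval Cox7a1 differed by -0.62 with EPO and 0.77 with GM-CSF/IL-3. Ndufs1, a core subunit of complex I, differed by 0.60 with EPO and -1.09 with GM-CSF/IL-3. Ndufv3, whose 2 probes disagree, differed by -0.72 with EPO and 0.64 with GM-CSF/IL-3. From Sca1-high day 3 to day 6, Cox4i2 differed by 0.91 with EPO and -0.94 with GM-CSF/IL-3. Cox6b2 differed by 1.13 with EPO and -0.62 with GM-CSF/IL-3, and the assembly factor Ndufaf7 by 0.98 with EPO and -0.63 with GM-CSF/IL-3.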

How the results depend on the processing

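No paired analysis was possible because every sample is replicate 1 of its own condition, so the groups compared share fewer than 2 replicate numbers; the comparison of the fractions was blocked by arm instead. The cause of the shifts below was not tested. With quantile normalization, and with normexp background correction before it, the member medians relative to untreated were 0.072 and 0.045 for EPO+GM-CSF/IL-3 Sca1-low, -0.37 and -0.36 for its Sca1-high, and -0.11 and -0.11 (reversed) at day 6. In the EPO arm they were 0.31 and 0.29 in Sca1-low, 0.12 and 0.12 in Sca1-high, and 0.29 and 0.28 at day 6. In the GM-CSF/IL-3 arm they were 0.17 and 0.13 in Sca1-low, -0.028 and -0.049 (reversed) in Sca1-high, and -0.15 and -0.15 at day 6. Sca1-low minus Sca1-high was 0.42 and 0.39 with EPO+GM-CSF/IL-3, and 0.18 and 0.18 with EPO. EPO+GM-CSF/IL-3 minus EPO had medians of -0.38 and -0.35, and day 6 minus Sca1-low -0.16 and -0.14. The count of members called higher in Sca1-low was 1 as reported, 0 with quantile normalization, 3 (3.37%, against 5.83% of all genes) with normexp, 0 with no filter on dim probes (1.5% of all genes), 0 with all 10 arrays in the fit (0%), and 10 with 1 lower (11.2% and 1.12%, against 12.7% and 10.1%) among genes well above background on all 10 arrays, where fewer genes were tested. With the slide as a block, the median of EPO+GM-CSF/IL-3 minus EPO was -0.73 and that of day 6 minus Sca1-low -0.51, and the genes called in all numbered 581 higher and 284 lower, and 867 higher and 470 lower, with no member among them. For day 6 minus Sca1-high they numbered 84 and 39. The blocked median of -0.73 for EPO+GM-CSF/IL-3 minus EPO is that of the day 6 pair alone, the only pair of these arms on 1 slide. It is therefore no further check of that difference. The slide block also turned Cox6a2 (2.99) and Ndufa13 (0.0051) for EPO+GM-CSF/IL-3 minus GM-CSF/IL-3, and Ndufa5 (-0.46), Cox7b (-0.40) and Cox6a2 (3.66) for day 6 minus Sca1-high.

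Leaving out arrays gave medians of 0.42 to 0.73 for Sca1-low minus Sca1-high, with 0 to 2 members called higher and 0 to 1 lower; the 2 and the 1 came without the EPO pair. The other medians were 0.40 to 0.74 for EPO minus GM-CSF/IL-3, -0.33 to -0.01 for EPO+GM-CSF/IL-3 minus GM-CSF/IL-3, and -0.86 to -0.65 for EPO+GM-CSF/IL-3 minus EPO. For day 6 they were -0.33 to -0.13 from Sca1-low, where 0 to 2 members were called lower (2 without EPO day 6), and 0.16 to 0.48 from Sca1-high. Among named genes, Cox6a2 ranged from -1.13 (without GM-CSF/IL-3 Sca1-low) to 0.26 (without EPO+GM-CSF/IL-3 Sca1-low) for EPO+GM-CSF/IL-3 minus GM-CSF/IL-3, turning to 0.034 without GM-CSF/IL-3 day 6 too. For day 6 minus Sca1-high it ranged from -1.56 (without EPO+GM-CSF/IL-3 day 6) to 0.21 (without EPO day 6). Atp5j2 for day 6 minus Sca1-low ranged from -0.032 (without GM-CSF/IL-3 Sca1-low) to 0.23, turning to -0.018 without EPO+GM-CSF/IL-3 day 6. The series' own values, the mean of all probes, kept outlier spots and subunits without assembly factors left the medians and counts of calls on the same side. Probes not above background limit what can be said of Cox7b2, Cox8b, Cox8c and Ndufa4l2.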
